A study of Mus musculus with 4 samples.

Results

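Splicing factors and heterogeneous nuclear ribonucleoproteins (hnRNPs) were followed in primary mouse colonic epithelial cells labelled as Mettl14 knockout (KO), set against wild-type (WT) cells. The genes were taken by symbol. They comprise the SR proteins (Srsf), the hnRNPs, the Sm and other proteins of the small nuclear ribonucleoproteins (snRNPs), the SF3A and SF3B subunits, U2AF and the pre-mRNA processing factors (Prpf). The rule matched 76 of the 50600 rows of the gene count table. Of these, 75 passed the filter on low counts and were tested among 14861 genes.

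Some rows matched by symbol need care. Snrpert is annotated as a processed pseudogene of Snrpe. The symbol U2af1l4 heads 2 rows, one of which is the separate gene Gm49396 in the GENCODE M21 annotation of GRCm38 (mm10). Both Snrpert and Gm49396 stayed among the 76.

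There were 2 Mettl14-KO libraries and 2 WT control libraries, all from C57BL/6 mice and all of poly(A)-selected RNA read per gene. Mettl14 encodes a subunit of the methyltransferase that writes N6-methyladenosine (m6A) on mRNA, and the study asked how this mark bears on the colonic epithelium. The labels used here do not give the Cre driver, the deleted exons or the age of the mice in words, nor whether animals were pooled. All 4 titles carry a code, C-2W, that the labels do not explain. Read from Xist and 4 Y-linked genes, each group held 1 female and 1 male library, so no group is 1 mouse sequenced repeatedly, and the spread within a group includes the difference between sexes.

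The libraries held 22730188 and 22780451 counts in KO and 22136440 and 24991060 in WT. Mettl14 had 3.99 and 3.94 CPM (counts divided by the TMM-scaled library size and set to a common total) in KO against 11.7 and 8.67 in WT, a log2 fold change of -1.36 with an adjusted p of 0.0503 by edgeR's quasi-likelihood test, just short of the 0.05 threshold. All 12 markers of colonic epithelium were read in every library, at a summed 8482 and 8041 CPM in KO and 9797 and 11145 in WT. The 25 cell cycle genes summed to 638 and 623 CPM in KO and 421 and 409 in WT; 24 of them were higher in both KO libraries, and 6 passed the test. The macrophage markers summed to 251 and 214 CPM in KO and 91.1 and 145 in WT, with 3 of 12 tested genes called higher. Fibroblast markers stood at 76.0 and 575 CPM in KO against 55.5 and 80.2 in WT, and haemoglobin genes took 0.132% and 0.739% of the counts in KO against 0.183% and 0.256% in WT. No marker of these lists was at 0 in any library. The part of these differences in the values below was not tested. In bulk RNA, fewer cells of a type and less RNA per cell cannot be told apart.

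Splicing removes introns inside the spliceosome, which is assembled anew on each intron. The U1 snRNP binds the 5′ splice site, U2AF and the U2 snRNP mark the 3′ splice site and the branch point, and the tri-snRNP of U4, U6 and U5 then joins. Most of these particles are built on a ring of Sm proteins. SR proteins bind exons and mostly favour their use, while hnRNPs often oppose it, and the balance between both families shapes which exons a tissue keeps. Several of these genes limit their own mRNA by splicing in an exon that sends the transcript to nonsense-mediated decay. Some members have been tied to m6A as well: HNRNPA2B1 and HNRNPC bind RNA in a way that depends on it, and the nuclear reader YTHDC1 works with SRSF3 and against SRSF10.

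The summed level of all 76 rows was 5131 and 5153 CPM in KO against 5368 and 5035 CPM in WT, with both KO values between the WT values. The log2 ratio of the means was -0.02. With 2 libraries against 2, an exact permutation test of this total cannot go below p = 0.333, so it is given without a test. The hnRNPs made up 2692 and 2709 CPM of it in KO and 2702 and 2557 CPM in WT, and the sum does not show differences that run opposite ways between genes. Scaled to library size alone the log2 ratio became 0.15, and under that scaling the median of all genes also stood at 0.15.

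Of the 75 genes tested, 1 rose, namely Prpf4, and 0 fell. Over all genes, 1.72% were called higher and 1.90% lower (3.61% in either direction) at an edgeR adjusted p under 0.05, so the members were called no more often than the background. At an unadjusted p under 0.05 there were 23 members (30.7%), 14 higher and 9 lower, beside 30.5% of all genes, 14.8% higher and 15.7% lower. In 51 members (68.0%) the KO and WT values did not overlap, 28 with KO higher and 23 with KO lower, beside 63.3% of all genes, 31.1% and 32.2%. DESeq2 called 2 members higher and 1 lower, beside 6.94% and 7.11% of the genes to which it gave an adjusted p, and edgeR with a term for sex called 2 higher and 0 lower, beside 4.68% and 4.80%. At an adjusted p under 0.1 there were 11 members (14.7%), beside 18.0% of all genes. The 74 that did not pass include many whose intervals leave room for a change, and a missed threshold does not show that they were equal.

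The sizes of the differences were small. The log2 fold changes ran between -0.87, that of Gm49396, and 0.89, so 0 members passed 2-fold, a size that 14.6% of all genes exceeded. The median of their absolute log2 fold change was 0.23, against 0.37 over all genes. Replicates of a group were also closer together. For each gene the larger of the KO and WT replicate distances was taken, in log2 with 0.5 CPM added. Its median was 0.15 for members and 0.31 for all genes. Members were read more deeply, at a median of 35.6 CPM against 12.4 CPM for all genes.

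**Figure D1:**
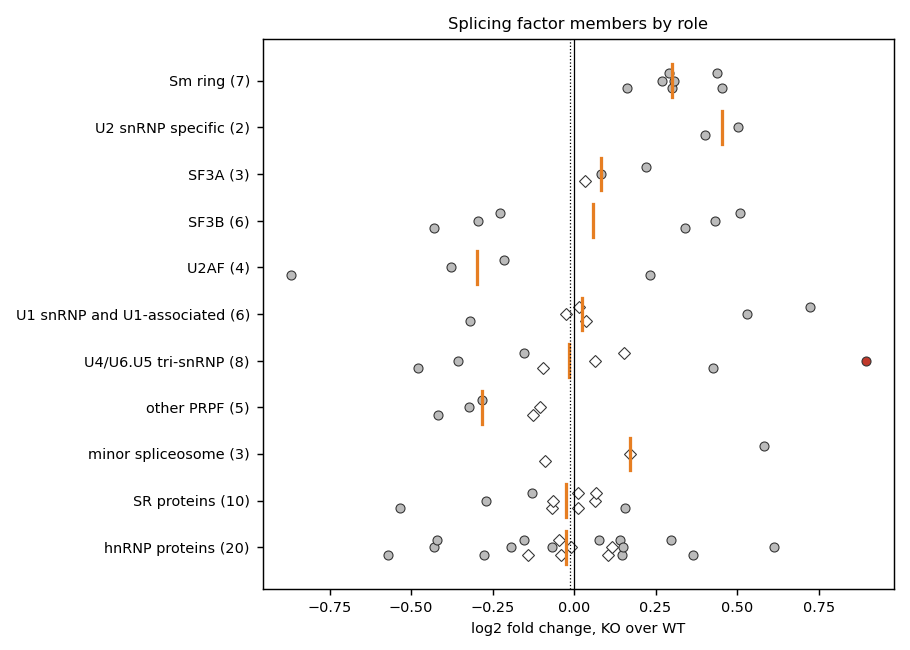
Log2 fold change (KO over WT, horizontal axis) of 74 tested members by role, Snrpert left out. Each symbol is a gene, grey circles where the KO and WT values do not overlap, open diamonds where they do, and red for Prpf4, which passed the edgeR test; orange bars are medians and the dotted line is the median of all genes. The 7 Sm ring genes all lie right of 0 and the 5 other Prpf genes all lie left of it.

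The Sm proteins form the heptameric ring that the snRNP RNAs thread, and their 7 genes lay on one side. Both KO libraries were above both WT libraries in 7 of 7, where 31.1% of all genes showed this, and 0 passed the test. Their log2 fold changes lay between 0.16 and 0.46, with a median of 0.30 beside -0.01 for all genes. All 7 stayed positive under all 15 alternative settings, with medians between 0.23 and 0.47. This adds little to the lack of overlap, since with groups apart the settings that left out a library could hardly turn a sign. The other scalings raised the median of all genes, to 0.15 under library size scaling, and so moved values away from a change of sign. The ring's summed level was 183.6 and 166.7 CPM in KO against 149.6 and 134.0 CPM in WT.

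Snrpb, which encodes SmB and was the most abundant of the 7 per length, had 65.8 and 60.6 CPM in KO against 52.9 and 49.3 in WT, a log2 fold change of 0.31 (SE 0.10). Snrpd1, for SmD1, had 16.0 and 14.2 CPM in KO against 12.04 and 10.27 in WT (0.44, SE 0.15). Snrpf, for SmF, had 16.6 and 14.3 CPM in KO against 11.8 and 10.7 in WT (0.46, SE 0.15). These were the 3 ring genes with an unadjusted p under 0.05, and their edgeR adjusted p-values were 0.137, 0.141 and 0.13. The smallest fold change was that of Snrpe, for SmE, at 21.4 and 20.1 CPM in KO against 18.7 and 18.4 in WT. For Snrpd3, Snrpd2 and Snrpg the lower KO value stood close above the higher WT value, 21.7 against 19.8, 22.0 against 21.4 and 13.7 against 13.0 CPM. Single libraries set the size of several of these values. The log2 fold change of Snrpd2 was 0.0915 without KO replicate 1 and 0.44 without KO replicate 2, and that of Snrpe was 0.105 without KO replicate 1. Snrpd3 and Snrpg stood at 0.173 and 0.157 without WT replicate 2, and at 0.466 and 0.468 without WT replicate 1.

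Near-identical copies touch part of this ring. Snrpg shares its coding sequence with Gm8186, which took 27.1% of the counts of both together, and Snrpe shares its own with Snrpert, which took 5.39%. With the copy added, the log2 ratio was 0.33 for Snrpg and 0.18 for Snrpe. Of the 861 exon bases of Snrpf, 567 lie on the opposite strand to exons of Ccdc38, and nothing used here says that the counting kept strands apart.

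Since the 7 genes lay together, the letters before their starts are shown for the 5 with an entry in the promoter set used here. Snrpb and Snrpd1 had no entry in that set. Each line gives the 150 bases before the RefSeq start on the gene's own strand (GRCm38.p6), and capitals mark CGGAAG (an ETS-type motif), CCAAT and TGACG (the core of a cAMP response element), read on either strand; CGGAAG and TGACG can share the letters CG.
Snrpd2, chr7:19149688-19149837, plus strand: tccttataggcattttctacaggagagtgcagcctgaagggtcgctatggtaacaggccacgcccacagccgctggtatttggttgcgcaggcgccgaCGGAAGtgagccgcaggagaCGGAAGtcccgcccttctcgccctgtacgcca
Snrpd3, chr10:75517892-75518041, plus strand: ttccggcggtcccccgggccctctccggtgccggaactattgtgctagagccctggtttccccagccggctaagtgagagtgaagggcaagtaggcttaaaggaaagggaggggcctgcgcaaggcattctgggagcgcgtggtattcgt
Snrpe, chr1:133610281-133610430, minus strand: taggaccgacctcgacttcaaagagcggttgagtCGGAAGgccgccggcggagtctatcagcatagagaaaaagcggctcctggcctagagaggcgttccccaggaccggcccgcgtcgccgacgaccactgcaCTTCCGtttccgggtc
Snrpf, chr10:93589659-93589808, minus strand: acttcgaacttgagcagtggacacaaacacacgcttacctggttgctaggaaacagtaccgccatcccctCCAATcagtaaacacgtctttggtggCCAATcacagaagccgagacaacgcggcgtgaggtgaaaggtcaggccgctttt
Snrpg, chr6:86371390-86371539, plus strand: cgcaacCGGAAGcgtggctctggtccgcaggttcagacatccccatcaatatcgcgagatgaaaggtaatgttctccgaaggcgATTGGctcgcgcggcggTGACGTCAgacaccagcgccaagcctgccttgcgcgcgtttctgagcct

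None of the 3 motifs was in all 5 windows. CGGAAG was in 3 of them, those of Snrpd2, Snrpe and Snrpg, CCAAT in 2, those of Snrpf and Snrpg, and TGACG only in that of Snrpg, while the Snrpd3 window held none. Among all members, 64 symbols had an entry, with 82 promoters. CGGAAG was in 32 of the 82 (39%) against 10.4% of the 32851 mouse promoters, TGACG in 27 (32.9%) against 13.3%, CCAAT in 31 (37.8%) against 24.5%, and TATAAA in 3 (3.66%) against 7.57%. The 32851 promoters belong to 27025 genes, taken whether or not they were read in these libraries. No share was taken among the tested genes alone. These are matches of letters, and no binding was measured.

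**Figure D2:**
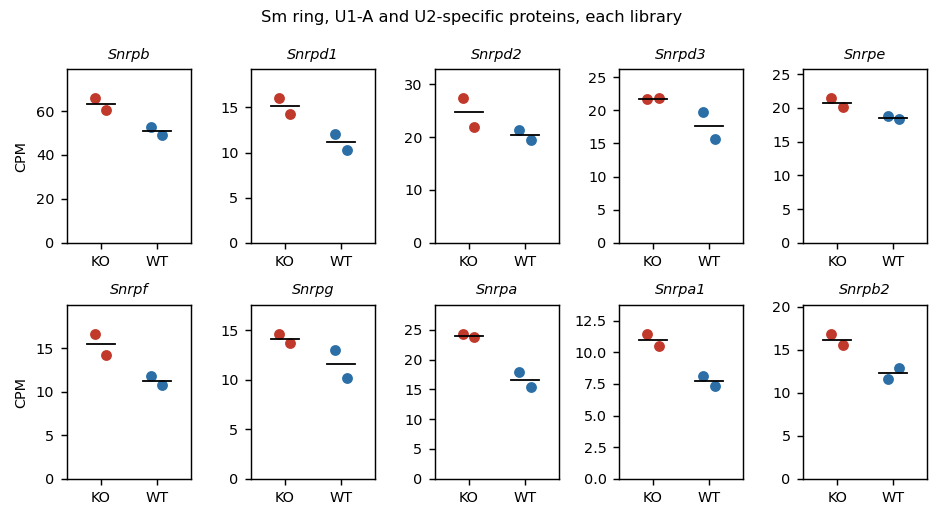
CPM (vertical axes, from 0) of the 7 Sm ring genes, Snrpa, Snrpa1 and Snrpb2. Each point is a library, KO in red on the left and WT in blue on the right, and bars are group means of 2 libraries. In all 10 genes both KO points lie above both WT points.

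The proteins that set the U1 and U2 particles apart showed higher and level genes. Snrpa, which encodes U1-A, had 24.2 and 23.8 CPM in KO against 17.9 and 15.4 in WT, a log2 fold change of 0.53 (SE 0.13, edgeR adjusted p 0.081). Its U1 partners Snrpc (U1-C) and Snrnp70 (U1-70K) lay at -0.03 and 0.04 with overlapping groups, and the sign of each turned under other settings. Snrpa1, for U2-A′, had 11.4 and 10.5 CPM in KO against 8.09 and 7.37 in WT (0.50, SE 0.15). Snrpb2, for U2-B″, had 16.8 and 15.6 CPM in KO against 11.6 and 12.9 in WT (0.40, SE 0.14). Neither U2 gene passed the test, with edgeR adjusted p-values of 0.117 and 0.137.

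Among the factors that travel with U1, Prpf40b had 12.5 and 12.3 CPM in KO against 8.58 and 6.44 in WT, a log2 fold change of 0.72 (SE 0.19, edgeR adjusted p 0.0903). No alternative that kept all libraries called it. With 1 library left out, its log2 fold change lay between 0.56 and 0.93. Prpf39 had 19.9 and 24.2 CPM in KO against 29.2 and 25.8 in WT (-0.32), and its log2 fold change was -0.20 without KO replicate 1.

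SF3A and SF3B are the parts of the U2 particle that hold the branch point. The 3 SF3A genes lay at or slightly above 0, between 0.03 and 0.22. The 6 SF3B genes parted into 3 with KO higher and 3 with KO lower, and in 6 of 6 the groups did not overlap, where 63.3% of all genes did not. The split of 3 and 3 was the same under all 15 alternatives, and 0 of the 6 passed the test. With groups apart, the alternatives that left out a library could hardly have changed this split. With the SF3B genes summed, KO stood at 470.9 and 462.6 CPM against 521.8 and 502.9 CPM in WT.

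Sf3b4, for a subunit that binds RNA beside the branch point, had 28.9 and 28.7 CPM in KO against 18.6 and 21.8 in WT, a log2 fold change of 0.51 (SE 0.13, edgeR adjusted p 0.081). No alternative that kept all libraries called it. With 1 library left out, its log2 fold change lay between 0.39 and 0.66. Sf3b5, for a small scaffold subunit, had 23.9 and 20.5 CPM in KO against 16.3 and 16.6 in WT (0.43). Sf3b3 had 73.8 and 72.4 CPM in KO against 63.6 and 51.8 in WT (0.34), and 188 of its exon bases lie opposite to Cog4.

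On the other side, Sf3b6, for the subunit that contacts the branch point adenosine, had 22.7 and 21.7 CPM in KO against 30.9 and 28.9 in WT, a log2 fold change of -0.43 (SE 0.11, edgeR adjusted p 0.081). Sf3b1, for the large subunit that clamps the branch helix, had 228 and 235 CPM in KO against 285 and 282 in WT (-0.29). Sf3b2 had 93.4 and 84.8 CPM in KO against 107.4 and 101.3 in WT (-0.23; -0.14 without KO replicate 2). Subunits of one complex were thus read at unequal changes, with the largest subunit's gene among those with KO lower.

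U2AF reads the polypyrimidine tract and the AG at the 3′ end of an intron. U2af1, the small subunit, had 26.5 and 23.9 CPM in KO against 23.5 and 19.4 in WT (0.23). U2af2, the large subunit, had 69.4 and 71.3 CPM in KO against 86.7 and 76.7 in WT (-0.22). U2af1l4, a paralog of the small subunit, had 6.08 and 5.84 CPM in KO against 8.34 and 7.15 in WT (-0.38). Gm49396, which shares 1086 exon bases with it, had 2.35 and 3.20 CPM in KO against 6.07 and 4.08 in WT (-0.87). Of the 3234 exon bases of Gm49396, 1268 are shared with Igflr1 on the same strand. Reads of U2af1l4, Gm49396 and Igflr1 cannot be assigned to one with certainty, and 0 of the 4 U2AF rows passed the test. The log2 fold change of U2af1 was 0.136 without WT replicate 2, 0.146 without KO replicate 1 and 0.365 without WT replicate 1, and that of U2af2 was -0.136 without WT replicate 1.

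The tri-snRNP held the only called member. Prpf4 encodes a protein of the U4/U6 particle that binds PRPF3 and lies at chromosome 4, 62408797 to 62426990. It had 466 and 491 counts in KO against 218 and 259 in WT, or 20.7 and 19.1 CPM in KO against 10.5 and 10.9 CPM in WT. The lower KO value was well above the higher WT value. The log2 fold change was 0.89 (SE 0.13, 95% interval 0.57 to 1.22), with an edgeR adjusted p of 0.045.

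Prpf4 was called under 13 of the 15 alternatives, at log2 fold changes between 0.83 and 1.06. Over the 15, its adjusted p ran between 0.00201 and 0.378. The 2 that lost the call left out a KO library, and under each of these 0 of all genes passed edgeR's test. Prpf4 and Cdc26, which encodes a subunit of the anaphase-promoting complex, start 155 bases apart on opposite strands. Cdc26 had 14.5 and 16.4 CPM in KO against 14.1 and 11.2 in WT, a log2 fold change of 0.29 that did not pass (edgeR adjusted p 0.31) and was 0.165 without WT replicate 2 and 0.452 without WT replicate 1. The 150 bases before the RefSeq start of Prpf4 on the plus strand (GRCm38.p6), shown because the gene was the only one called, hold none of those 3 motifs and so have no capitals.
Prpf4, chr4:62408633-62408782, plus strand: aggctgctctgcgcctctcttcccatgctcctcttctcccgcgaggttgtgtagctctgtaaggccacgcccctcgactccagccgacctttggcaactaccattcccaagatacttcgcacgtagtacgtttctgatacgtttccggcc

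Its neighbours in the tri-snRNP did not share a direction. Prpf31, a U4 protein whose mutation causes retinal degeneration in humans, had 22.3 and 21.6 CPM in KO against 16.7 and 15.9 in WT (0.43, SE 0.11, edgeR adjusted p 0.0904). Prpf6, a U5 protein that bridges to U4/U6, had 31.0 and 27.4 CPM in KO against 40.8 and 40.6 in WT (-0.48, SE 0.11, edgeR adjusted p 0.0716). Snrnp27 had 8.25 and 7.83 CPM in KO against 10.7 and 9.89 in WT (-0.36). Prpf8, the U5 scaffold at the catalytic centre, had 134 CPM in both KO libraries against 136 and 120 in WT, and the helicase gene Snrnp200 had 67.3 and 72.0 CPM in KO against 76.9 and 78.1 in WT. The groups of Prpf3 and Snrnp40 overlapped.

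The 5 remaining Prpf genes work in activation or in other particles. All had a log2 fold change below 0, between -0.42 and -0.11, with a median of -0.28. Over all genes, 49% lay above 0. Of all 13 Prpf genes, 8 lay below 0 and 5 above. Under library size scaling 2 of them turned positive, and 1 did so without WT replicate 1. Prpf38a, a factor of spliceosome activation, had 14.2 and 13.0 CPM in KO against 19.3 and 17.1 in WT (-0.42). Prpf38b had 51.8 and 53.2 CPM in KO against 68.8 and 62.5 in WT (-0.32), and Prpf18, a factor of the second step, had 21.6 and 20.1 CPM in KO against 25.2 and 25.4 in WT (-0.28). In Prpf19 and Prpf4b the groups overlapped, and 0 of the 5 passed the test.

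Of the 3 genes of the minor (U12) spliceosome, Snrnp35 had 5.41 and 5.03 CPM in KO against 3.47 and 3.49 in WT (0.58, SE 0.21, edgeR adjusted p 0.149). Snrnp25 and Snrnp48 overlapped between groups.

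**Figure D3:**
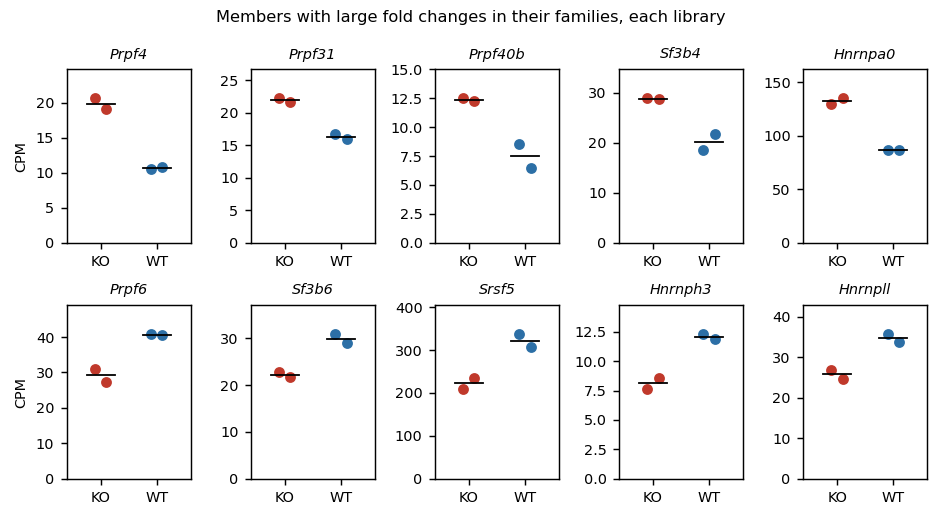
CPM (vertical axes, from 0) of 10 members with large fold changes in their families. Each point is a library, KO in red on the left and WT in blue on the right, and bars are group means of 2 libraries. The top row holds genes with KO higher (Prpf4, Prpf31, Prpf40b, Sf3b4, Hnrnpa0) and the bottom row genes with KO lower (Prpf6, Sf3b6, Srsf5, Hnrnph3, Hnrnpll); Prpf4 alone passed the test.

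The SR proteins differed little between the groups. Of 10 tested, 6 overlapped between the groups, 1 was higher in both KO libraries and 3 were lower in both, and 0 passed the test. Those without overlap made up 40.0%, where 63.3% of all genes did not overlap. Their median absolute log2 fold change was 0.07 beside 0.37 for all genes. The eleventh, Srsf12, was left out by the filter, with 1 and 7 counts in KO and 2 and 3 in WT.

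Srsf5, at chromosome 12, 80945504 to 80950507, stood apart from the other SR genes in the size of its difference. It had 210 and 235 CPM in KO against 337 and 308 CPM in WT. Both KO libraries were below both WT libraries, at a log2 fold change of -0.53 (SE 0.14, 95% interval -0.90 to -0.17). The edgeR adjusted p was 0.0866, while DESeq2 called it at an adjusted p of 0.0162; over the 15 alternatives the range was 0.0162 to 0.43.

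Srsf11 had 67.9 and 79.8 CPM in KO against 89.7 and 88.3 in WT (-0.27; -0.17 without KO replicate 1). Srsf1, the prototype SR protein, had 84.8 and 85.6 CPM in KO against 78.8 and 74.0 in WT (0.16). Of the pair tied to YTHDC1, Srsf3 had 125 and 120 CPM in KO against 125 and 110 in WT, and Srsf10 had 30.0 and 32.4 CPM in KO against 33.5 and 31.9 in WT. Both pairs of groups overlapped. The 95% intervals of both genes span 0.

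The count table does not separate transcripts, so a shift towards a decay isoform within one gene would not show in it. GENCODE M21 annotates at least 1 nonsense-mediated decay transcript for 9 of the 10 tested SR genes and for 4 of the 4 U2AF rows. Among all tested members this was 36 of 75 (48.0%), beside 27.8% of tested protein-coding genes. Among the Sm ring genes it was 2 of 7.

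The hnRNPs lay on both sides of 0. Of 20, there were 7 with KO higher and 7 with KO lower without overlap, 70.0% together, where 63.3% of all genes did not overlap; 6 overlapped, and 0 passed the test. That share is near the background. Their median log2 fold change was -0.02.

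Hnrnpa0, an intronless gene of the A/B group at chromosome 13, 58125879 to 58128556, had 130 and 135 CPM in KO against 86.5 and 86.7 CPM in WT. The libraries of each group lay close together and the groups were far apart, at a log2 fold change of 0.61 (SE 0.10, 95% interval 0.34 to 0.89). Its edgeR adjusted p of 0.052 missed the threshold, and 7 of the 15 alternatives called it, DESeq2 among them with an adjusted p of 0.00142; the range was 0.00142 to 0.381. Of the A/B group, Hnrnpa1 and Hnrnpa3 had KO higher too. The groups of Hnrnpab overlapped, at 151 and 156 CPM in KO against 152 and 133 in WT (0.10). Hnrnpa1, for a protein that silences exons, had 132 and 124 CPM in KO against 104 and 94.1 in WT (0.37), and Hnrnpa3 had 305 and 304 CPM in KO against 254 and 242 in WT (0.30).

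On the other side stood Hnrnph3 at 7.67 and 8.57 CPM in KO against 12.3 and 11.9 in WT (-0.57, SE 0.15, edgeR adjusted p 0.0873). Its head-to-head neighbour Pbld2, which starts 98 bases away, had 3.37 and 4.09 CPM in KO against 7.18 and 6.86 in WT (-0.91, edgeR adjusted p 0.0725). Not all members shared a direction with such a neighbour. Cog4 lay at -0.54 beside Sf3b3 at 0.34, and Tfpt lay at -0.22 beside Prpf31 at 0.43. Hnrnph1, from the same G-run binding group as Hnrnph3, had 79.9 and 86.6 CPM in KO against 107 and 95.2 in WT (-0.28). That group did not move as one. Hnrnph2 was higher in KO, at 48.55 and 47.82 CPM against 45.48 and 41.33 in WT (0.15), and Hnrnpf lay at -0.07. Hnrnpll, which is known for directing Ptprc splicing in lymphocytes, had 27.0 and 24.7 CPM in KO against 35.7 and 33.9 in WT (-0.43), and Hnrnpul2 had 149 and 142 CPM in KO against 206 and 184 in WT (-0.42).

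The hnRNPs named above as tied to m6A, Hnrnpa2b1 and Hnrnpc, had small fold changes in opposite directions. In both genes the KO and WT values did not overlap, where 63.3% of all genes did not. Hnrnpa2b1 had 358 and 368 CPM in KO against 336 and 323 in WT, a log2 fold change of 0.14 (SE 0.13). Hnrnpc had 70.3 and 71.5 CPM in KO against 79.0 and 78.6 in WT (-0.15, SE 0.09), and its sign turned under library size scaling.

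Levels between genes can be compared only per length. Divided by merged exon length (GENCODE M21, basic set), the members had a median of 12.8 CPM per kilobase against 3.82 for all tested genes. In KO the highest level was that of Hnrnpa2b1, at 147 and 151 CPM per kilobase, above Srsf5 at 127 and 142. In WT the order was turned, with Srsf5 at 204 and 186 above Hnrnpa2b1 at 138 and 133. Hnrnpf came next in both groups, at 93.7 and 92.1 in KO and 99.8 and 95.1 in WT. Hnrnpk, Srsf2 and Snrnp70 followed at levels that did not differ beyond their spread, between 59.6 and 66.4 CPM per kilobase in all 4 libraries. Hnrnpa1 stood at 68.8 and 64.5 in KO, among those 3 genes, and at 54.4 and 49.0 in WT, below them. At the low end stood Hnrnpr at 1.56 and 1.72 in KO and 1.93 and 1.69 in WT. Gm49396 stood at 0.78 and 1.06 in KO and 2.02 and 1.36 in WT. The low value of Hnrnpr goes with a merged exon length of 21483 bases, beside a member median of 2752. Not divided by length, its mean was 37.0 CPM, near the member median of 35.6 CPM.

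**Figure D4:**
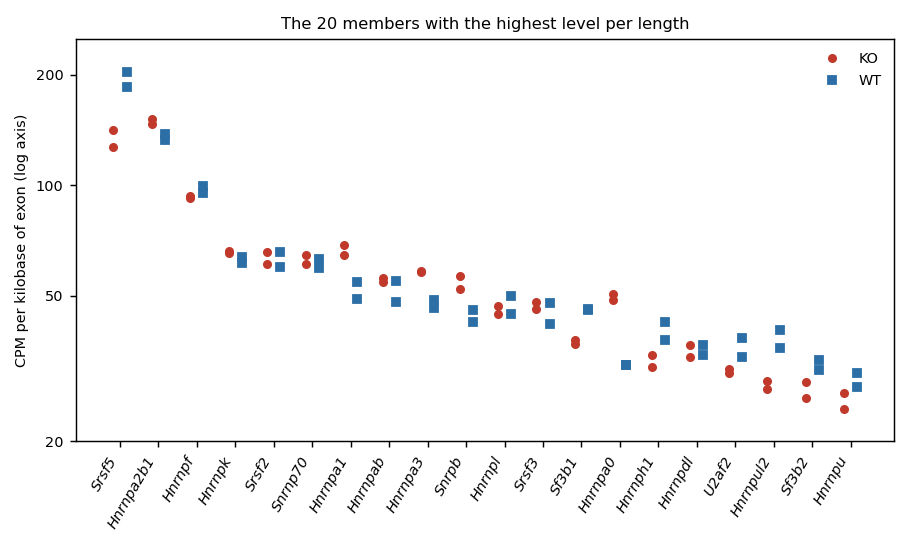
CPM per kilobase of merged exon (vertical log axis) for the 20 members with the highest level per length. Red circles are the 2 KO libraries and blue squares the 2 WT libraries of each gene. Srsf5 lies above Hnrnpa2b1 in WT and below it in KO.

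Beyond the members, 126 genes of splicing and snRNP assembly were read from 10 lists, and 2 rose and 1 fell, where 1.72% of all genes were called higher and 1.90% lower. Gemin4, which encodes a subunit of the SMN complex that loads Sm rings onto snRNA, had 23.6 and 18.0 CPM in KO against 5.88 and 3.54 in WT, a log2 fold change of 2.15 (SE 0.30, edgeR adjusted p 0.0465). Of its 3734 exon bases, 3353 are shared with transcripts of Glod4 on the same strand and 2875 lie opposite to Fam57a, so its reads cannot be assigned with certainty. Gemin6, for another SMN complex subunit with an Sm-like fold, had 4.70 and 4.99 CPM in KO against 1.49 and 1.64 in WT (1.62, SE 0.25, edgeR adjusted p 0.048). Syf2, for a factor of the activated spliceosome, had 27.1 and 28.2 CPM in KO against 44.7 and 47.1 in WT (-0.73, SE 0.10, edgeR adjusted p 0.0443). Gemin4 was called under 13 of the 15 alternatives, Syf2 under 12 and Gemin6 under 11. None of the 3 passed without KO replicate 1 or without KO replicate 2, Gemin6 also missed the threshold under RLE scaling and without WT replicate 1, and Syf2 under library size scaling.

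The assembly list as a whole lay where the Sm ring lay. All 15 of its genes had a log2 fold change above 0, with a median of 0.40, 13 had both KO values above both WT values, and 2 passed the test, where 31.1% of all genes had both KO values higher and 1.72% were called higher; without KO replicate 2 the count above 0 was 14, and without WT replicate 2 it was 13. Ddx20, the helicase Gemin3, had 13.5 and 13.8 CPM in KO against 8.24 and 8.50 in WT (0.71, edgeR adjusted p 0.0585), and the snRNA export adaptor gene Phax had 20.9 and 24.5 CPM in KO against 13.2 and 14.3 in WT (0.73, edgeR adjusted p 0.0594). Smn1, which encodes the SMN protein itself, overlapped between groups. Of the 10 LSm genes, relatives of the Sm ring, 8 were above 0 with a median of 0.35, where 49% of all genes were above 0. Lsm10 and Lsm11, whose products replace SmD1 and SmD2 in the U7 particle of histone mRNA processing, lay at 0.78 and 0.82 with edgeR adjusted p-values of 0.0712 and 0.068. The cell cycle genes given above were higher in the same libraries, and their part in the Sm, LSm and assembly genes was not tested.

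The lists that act on SR proteins and on faulty transcripts had medians below 0. Of 7 SR protein kinase genes 5 were below 0 and 2 above, where 49% of all genes were above 0. Their median was -0.21, with 0 called. That median is the value of Srpk3, at 0.71 and 0.43 CPM in KO against 0.29 and 1.01 in WT, with overlapping groups. Without overlap, 2 kinase genes were higher in KO and 3 lower. Clk1 had 81.2 and 74.0 CPM in KO against 119 and 128 in WT (-0.67, edgeR adjusted p 0.0525). Its relatives Clk3 and Clk4 lay at -0.50 and -0.45, while Clk2 lay at 0.15 with both KO values above both WT values. Of 10 nonsense-mediated decay factor genes, 8 were lower in both KO libraries, where 32.2% of all genes were. The median of the 10 was -0.25, with 0 called. Smg8 lay on the other side at 0.78 (edgeR adjusted p 0.101). With 1 library left out, Smg8 lay between 0.519, without WT replicate 1, and 1.13. Among 35 other regulators of alternative splicing, 12 were above 0, where 49% of all genes were, and 23 below. Their median of -0.09 turned positive under library size scaling. In the remaining lists 0 genes other than Syf2 passed. Their medians lay between -0.18 for 9 further genes of the minor spliceosome and 0.11 for 9 of the exon junction complex, with 10 SR-related coactivators, 11 spliceosomal helicases and 12 genes of the Prp19 complex in between. Rbm5, Mbnl2 and Raly, all regulators of exon choice, at -0.88, -0.63 and -0.61, each had an edgeR adjusted p of 0.0503.

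**Figure D5:**
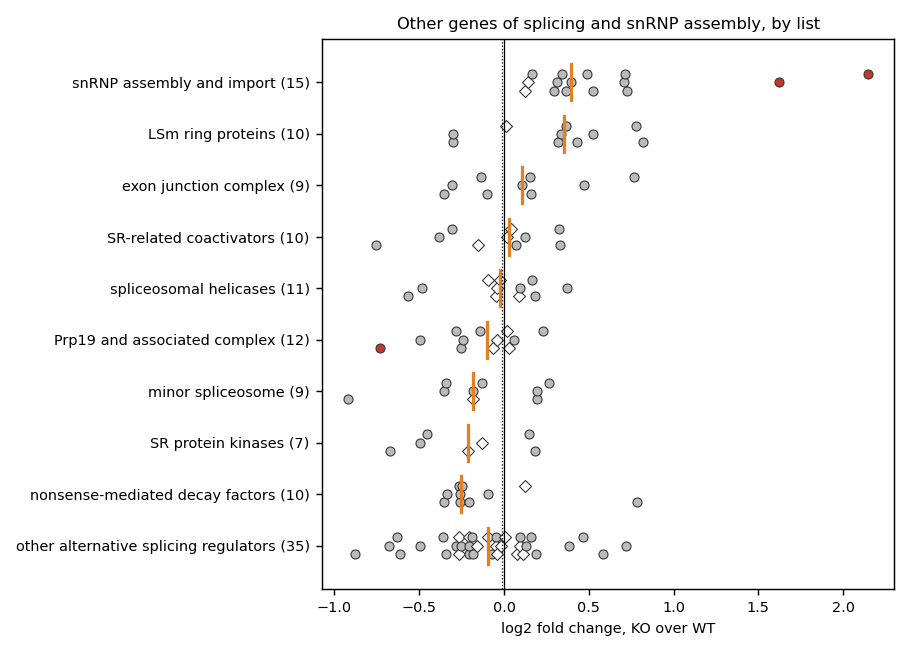
Log2 fold change (KO over WT, horizontal axis) of 126 genes of splicing and snRNP assembly in 10 lists, a gene in 2 lists shown in both. Grey circles are genes whose KO and WT values do not overlap, open diamonds those that overlap, red circles those past the edgeR test (Gemin4, Gemin6, Syf2); orange bars are medians and the dotted line is the median of all genes. The snRNP assembly list lies wholly right of 0.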

How the data were processed

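The authors deposited a table of whole-number read counts per gene for 2 Mettl14-KO and 2 WT libraries; the submitters' processing notes list FastQC 0.11.2, STAR 2.4.2a, RSEM 1.2.29 and mm10. RSEM divides reads shared by several genes by estimation, which bears on genes with near-identical copies. Strandedness is not given in the sources used here.

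Genes were filtered with filterByExpr and scaled by TMM, and KO was tested against WT over 14861 genes with edgeR 4.0.16 (quasi-likelihood F-test, robust, 2 residual degrees of freedom) in R 4.3.3, adjusted by Benjamini and Hochberg at 0.05. CPM use the TMM-scaled library size; a count of 0 allows up to 0.12 to 0.136 CPM (3 counts, counting error only). The SE is the fold change divided by the root of F. Alternatives were other scalings, DESeq2 1.42.0, limma-voom 3.58.1, edgeR options, filters, a sex term and leaving out each library. Near-identical copies (at least 95% identity over 50% of the coding sequence) were found with BLAST+ 2.17.0. The script was tested on simulated data.

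The members and gene lists were chosen with earlier results of these data known. Named genes were those called, the 3 highest and 3 lowest fold changes of each family at a mean of at least 5 CPM, the 2 most abundant per length, and genes left out by the filter. Snrpd1, Snrpd3, Snrpe, Snrpg, Snrpb2, Snrnp35, Prpf18, Prpf39, Hnrnph1, Hnrnpc, Hnrnpr, Srsf10, Prpf3, Prpf19, Prpf4b, Snrnp25, the neighbours Cdc26 and Pbld2, and every uncalled gene named from the other splicing lists were chosen after their values were seen. So were Hnrnph2, Hnrnpab and the neighbours Cog4 and Tfpt.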

Additional observations from a re-analysis of the deposited data

How the results depend on the processing

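The labels do not pair KO with WT libraries, so replicates of the same number were not treated as pairs. The fit with a sex term is the one that pairs libraries, by the sex read from the data. Calls depended on the libraries and the tool, while directions mostly did not. Over all genes, 537 were called by edgeR with TMM, 1927 by DESeq2, 1632 with no filter, 1409 with a sex term, and 0 to 2290 when 1 library was left out, at 0 without either KO library (2257 and 1987 genes at an unadjusted p under 0.05). The share of calls that were higher was 47.5% with TMM, 76.5% under library size scaling and 61.1% under upper quartile scaling. Of the members, 1 was called. It was 2 under library size and upper quartile scaling, beside 790 and 681 over all genes. It was also 2 with no filter, a minimum of 1 CPM in 2 libraries or the sex term, beside 1632, 754 and 1409. DESeq2 called 3, beside 1927. Of the 126 other splicing genes, 3 were called, beside 537 of all 14861 genes. DESeq2 called 13, beside 1927 of the 13708 genes to which it gave an adjusted p. Both limma-voom and the legacy option off called 6, beside 582 and 577 of 14861. With no filter 14 were called, beside 1632 of 24337. At 1 CPM 8 of 125 were called, beside 754 of 13272. With the sex term 10 were called, beside 1409 of 14861. The log2 ratio of the members' total was 0.15 under library size and 0.0536 under upper quartile scaling. Between 38 and 56 members lay above 0, with 41 under TMM.

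Of 1215 recomputed values of 81 of the named genes, 25 changed sign, all for fold changes within 0.2 of 0. Under library size scaling these were Hnrnpf (0.0969), Hnrnpc (0.0148), Snrnp200 (0.0167), Snrnp48 (0.0675), Snrpc (0.138), Srsf9 (0.0381), Srsf10 (0.103), Hnrnpr (0.0312), Prpf19 (0.0398), Prpf3 (0.0722) and Prpf4b (0.065). Under upper quartile scaling they were Hnrnpf (0.00142), Snrpc (0.0447) and Srsf10 (0.00329), and without mitochondrial and the 10 most abundant genes Snrpc (0.00386). With 1 library left out, the range crossed 0 for Snrnp48 (-0.262 to 0.0761, above 0 without KO replicate 2), Snrpc (-0.0924 to 0.0482, above 0 without KO replicate 2), Srsf2 (-0.0512 to 0.0845, below 0 without KO replicate 1 or, at -0.0229, WT replicate 2), Snrnp70 (-0.0141 to 0.108, below 0 without WT replicate 1), Srsf6 (-0.0823 to 0.26, below 0 without WT replicate 2), Prpf19 (-0.257 to 0.0445, above 0 without WT replicate 1), Prpf3 (-0.218 to 0.0581, above 0 without WT replicate 2), Snrnp25 (-0.0904 to 0.516, below 0 without WT replicate 1) and Smn1 (-0.0211 to 0.314, below 0 without WT replicate 2). Leaving out 1 library moved the fold change of 28 of the 81 by over 1.5 times, 19 of them without a change of sign. The cause was not tested.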
